A study of Homo sapiens with 3 samples.

Results

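The genes described here are 10 genes of fibroblast growth factor (FGF) signalling, out of 58051 genes counted in each library. They were chosen by name and not by their level, but with earlier results of these data known. They comprise 3 ligand genes (FGF2, FGF4 and FGF8), the 4 genes of the receptor tyrosine kinases (FGFR1, FGFR2, FGFR3 and FGFR4) and 3 genes of feedback inhibitors (SPRY2, SPRY4 and DUSP6). All 10 were found once in the count tables, by joining the Ensembl identifiers to GENCODE release 44. The libraries came from H9, an established human embryonic stem cell line of wild-type genotype that received no treatment. The cells were grown on vitronectin in Essential 8 Flex, a defined medium whose recipe includes FGF2 protein, and total RNA with a RIN above 7 was depleted of ribosomal RNA before sequencing. There is 1 group of 3 replicates and no second condition, so the error of every value is the SD over these replicates, and the labels do not say whether they were separate cultures.

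FGFs are secreted proteins that bind receptor tyrosine kinases at the cell surface together with heparan sulfate. The receptors signal through the adaptor FRS2, RAS and the kinase cascade that ends in ERK, and ERK signalling in turn raises transcription of genes whose products dampen the pathway, among them the Sprouty and DUSP6 genes. FGF2 and active ERK signalling are used to keep human embryonic stem cells undifferentiated in culture.

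The gene counts of replicates 1, 2 and 3 summed to 10390984, 12024802 and 8655155 reads. Levels are given in TPM, transcripts of a gene per fixed total of transcripts, computed here from the counts and the length of all annotated exons of a gene, and 1 read per kilobase of exon was worth 0.384, 0.330 and 0.451 TPM in replicates 1, 2 and 3. The 7 pluripotency markers examined were all in the high expression class, from 259 to 2576 TPM. The 15 markers of ectoderm, mesoderm, endoderm and trophectoderm lay between 0 and 22.3 TPM. Of the 5 fibroblast markers, DCN had 0.0985, COL3A1 2.71, COL1A1 14.6, COL1A2 25.6 and THY1 145 TPM. All but DCN, 4 of the 5, were at or above 1 TPM in every replicate. Stem cells also express THY1, a remark made after its value was seen. In bulk RNA, fewer cells of a type and less RNA per cell cannot be told apart.

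Every member was expressed. All 10 were at or above 1 TPM in every replicate, a level that 65.1% of 19629 protein-coding genes reached. In the high expression class, the top one of 3 equal classes of the protein-coding genes at or above 0.01 TPM, from 27.0 TPM upward, lay 6 of the 10 (FGF2, FGFR1, FGFR4, SPRY2, SPRY4 and DUSP6), where 28.8% of protein-coding genes belonged to it. The other 4 (FGF4, FGF8, FGFR2 and FGFR3) were in the medium class, which begins at 3.35 TPM. The count of 6 was the same without replicate 3. DUSP6 had the highest mean, 243 TPM, and FGF4 the lowest, 5.05 TPM.

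**Figure D1:**
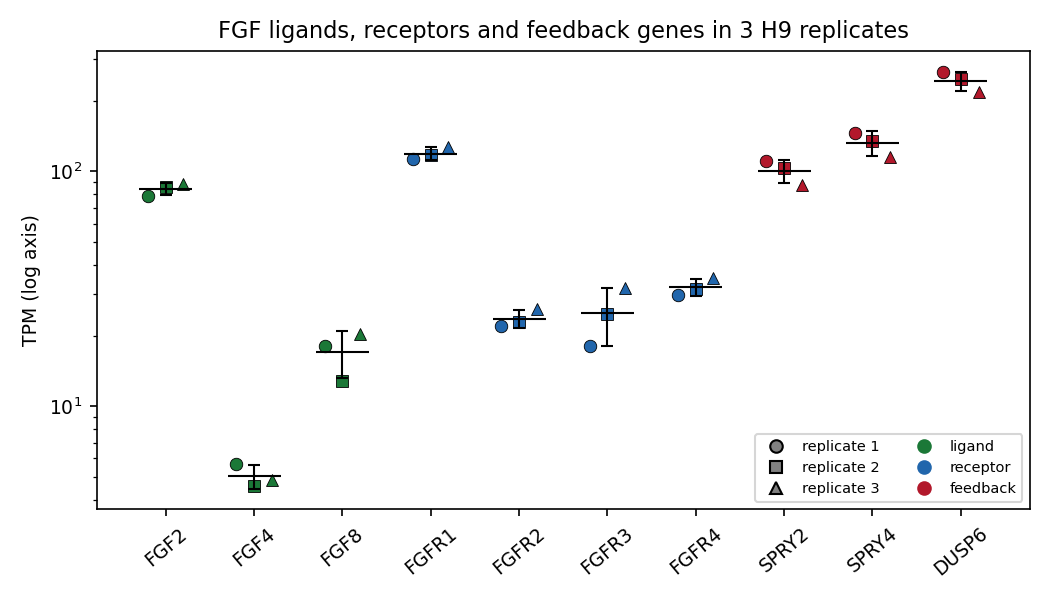
TPM (log axis) of the 10 members in each of the 3 replicates, with the mean and SD. The 3 feedback genes lie between 87.8 and 264 TPM in every replicate, and FGF4 lies below all other members, between 4.59 and 5.70 TPM.

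FGF2 (ENSG00000138685, chromosome 4, 122826682 to 122898236, plus strand, GRCh38) encodes the ligand that is added to stem cell media. It had 1393, 1767 and 1333 reads, or 78.7, 85.9 and 88.3 TPM, with a mean of 84.3 ± 5.00 TPM (SD, n = 3). The replicates lay close together, with a coefficient of variation of 5.94%, where read counting alone would give 2.60%. Of its exon bases, 11.8% lie opposite exons of NUDT6, a gene read from the other strand.

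FGF4 (ENSG00000075388, chromosome 11, 69771022 to 69775341, minus strand) encodes a ligand made by early embryonic cells. It had 47, 44 and 34 reads, or 5.70, 4.59 and 4.84 TPM, with a mean of 5.05 ± 0.583 TPM (SD, n = 3). Its coefficient of variation of 11.6% was below the 15.6% that counting of so few reads would give. FGF4 sits in a cluster of 3 ligand genes, 66999 bp from FGF19 and 34626 bp from FGF3. The neighbors differed widely, since FGF19 had 74.6 ± 5.14 TPM (SD, n = 3) and FGF3 had no read in any replicate.

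FGF8 (ENSG00000107831, chromosome 10, 101770109 to 101780371, minus strand) encodes a ligand of the gastrulating embryo and of brain and limb signalling centers. It had 68, 56 and 65 reads, or 18.1, 12.8 and 20.3 TPM, with a mean of 17.1 ± 3.84 TPM (SD, n = 3). Replicate 2 was the lowest, and the coefficient of variation of 22.5% exceeded the 12.6% given by counting.

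Of the TPM summed over the 3 member ligands, FGF2 held 76.8%, 83.1% and 77.8%, a mean of 79.2 ± 3.41% (SD, n = 3). FGF8 held 16.0 ± 3.10% and FGF4 4.76 ± 0.704% (SD, n = 3). FGF2 thus exceeded both other members together in every replicate. Among all 18 genes of secreted ligands its share was smaller, at 43.2 ± 2.62% (SD, n = 3), because FGF19, an endocrine ligand that is no member, held 38.3 ± 3.06%. The ratio of FGF2 to FGF19 was 0.982, 1.17 and 1.26, on either side of 1, so their order was not the same in all replicates.

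FGFR1 (ENSG00000077782, chromosome 8, 38400215 to 38468834, minus strand) encodes a receptor that binds FGF2. It had 5047, 6107 and 4866 reads, or 113, 117 and 127 TPM, with a mean of 119 ± 7.54 TPM (SD, n = 3). This was the highest level of the 4 receptor genes in each replicate, with no overlap of their ranges.

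FGFR2 (ENSG00000066468, chromosome 10, 121478332 to 121598458, minus strand) encodes a receptor whose splice forms differ in the ligands they bind. It had 1078, 1306 and 1084 reads, or 22.0, 22.9 and 26.0 TPM, with a mean of 23.6 ± 2.06 TPM (SD, n = 3). Its ratio to FGFR1 hardly varied, at 0.195, 0.196 and 0.204.

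FGFR3 (ENSG00000068078, chromosome 4, 1793293 to 1808872, plus strand) encodes a receptor known for restraining bone growth. It had 229, 362 and 344 reads, or 18.1, 24.7 and 32.0 TPM, with a mean of 24.9 ± 6.92 TPM (SD, n = 3). Its coefficient of variation, 27.7%, was the largest of the members, against 5.78% from counting, and replicate 3 was 1.76 times replicate 1.

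FGFR4 (ENSG00000160867, chromosome 5, 177086905 to 177098144, plus strand) encodes the receptor that FGF19 uses in liver together with the coreceptor beta-Klotho. It had 373, 459 and 374 reads, or 29.8, 31.5 and 35.0 TPM, with a mean of 32.1 ± 2.67 TPM (SD, n = 3). It was above FGFR3 in every replicate, yet their ranges overlapped. The coreceptor gene KLB was at 2.23 ± 0.433 TPM (SD, n = 3).

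The receptor genes resemble each other in sequence, and stretches that their MANE Select transcripts share are printed to show how short these are. MANE Select is the representative transcript of a gene that RefSeq and Ensembl chose together. The longest exact run was 31 bases, between FGFR3 and FGFR4, and the shortest of the 6 pairs was 21 bases, between FGFR1 and FGFR2. FGFR1 shared 30 bases with FGFR4 and 26 with FGFR3, FGFR2 shared 24 with FGFR4 and 23 with FGFR3, and the longest runs of the pairs FGFR3 and FGFR4 and FGFR2 and FGFR4 are shown. The sequences are from GRCh38 and read 5′ to 3′ along the transcript, the capitals mark the shared run, and the lower case shows neighboring bases of the same exon.
FGFR3, exon 14, coding, chr4:1806051-1806106, plus strand: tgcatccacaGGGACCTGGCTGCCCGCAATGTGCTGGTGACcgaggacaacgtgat
FGFR4, exon 14, coding, chr5:177096057-177096112, plus strand: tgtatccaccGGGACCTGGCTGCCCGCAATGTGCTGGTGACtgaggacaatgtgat
FGFR2, exon 7, coding, chr10:121520033-121520086, minus strand: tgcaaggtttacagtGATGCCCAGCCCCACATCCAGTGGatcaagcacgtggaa
FGFR4, exon 7, coding, chr5:177092404-177092457, plus strand: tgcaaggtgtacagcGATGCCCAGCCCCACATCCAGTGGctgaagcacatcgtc
None of the transcripts of FGFR2, FGFR3 and FGFR4 held a run of 50 bases or more in common with a transcript of any other gene.

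FGFR1 held 61.7%, 59.7% and 57.8% of the TPM summed over the 4 receptors, a mean of 59.7 ± 1.94% (SD, n = 3). FGFR4 held 16.1 ± 0.210% and FGFR2 11.8 ± 0.194% (SD, n = 3), both nearly constant between replicates. The share of FGFR3 was 9.93%, 12.6% and 14.5%, a mean of 12.3 ± 2.29% (SD, n = 3), so that its values reached from below FGFR2 to above it.

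The receptor levels depended on which length stands for the gene. The annotated exons of FGFR2 add up to 18813 bases over 41 transcripts, 4.07 times its MANE Select transcript, and those of FGFR1 to 17201 bases over 58 transcripts, 3.02 times. For FGFR4 and FGFR3 the ratio was 1.56 and 1.13, and its median over 18964 protein-coding genes was 1.32, with 8.44% of them above 3. With the MANE Select length for every gene, FGFR1 had 209.9, 219 and 239 TPM, a mean of 223 ± 15.1 (SD, n = 3). FGFR2 then had 59.5 ± 5.47 TPM, FGFR4 30.9 ± 2.71 TPM and FGFR3 17.4 ± 4.90 TPM (SD, n = 3). FGFR1 held 67.4 ± 1.15% of the receptor total by this measure, and FGFR2, at 18.0 ± 0.193% (SD, n = 3), took the place after it. FGFR4 held 9.35 ± 0.0249% and FGFR3 5.21 ± 1.05% (SD, n = 3). FGFR1 was the highest receptor by both lengths, whereas the place of FGFR2 among the other receptors was set by the length. Which transcripts the cells used was not tested, since the files hold 1 count per gene.

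**Figure D2:**
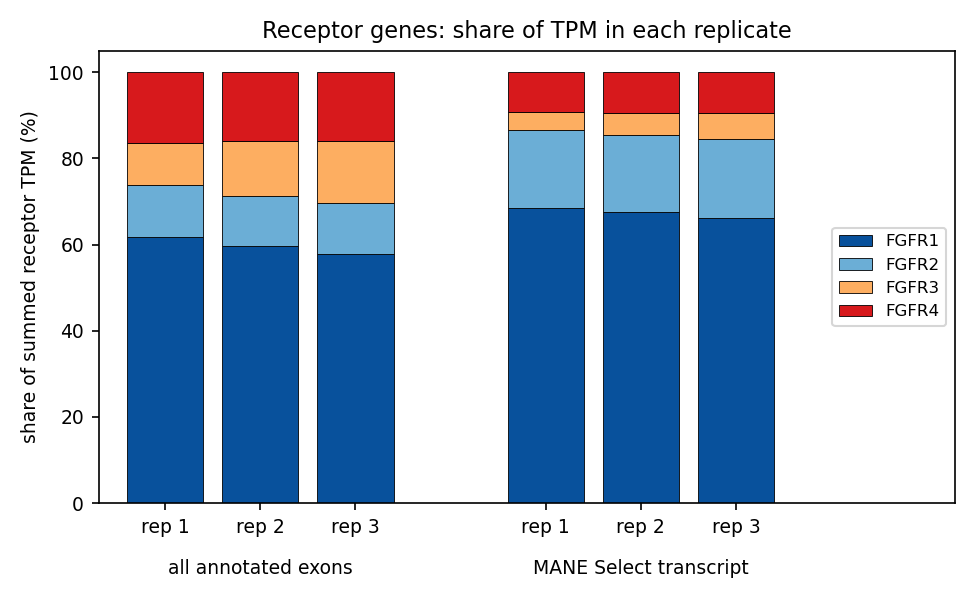
Share of the TPM summed over FGFR1 to FGFR4 (percent, stacked to the total) in each replicate, by the length of all annotated exons and by that of the MANE Select transcript. FGFR1 holds between 57.8% and 61.7% by the first and between 66.2% and 68.5% by the second, and FGFR2 widens from a mean of 11.8% to 18.0%.

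SPRY2 (ENSG00000136158, chromosome 13, 80335976 to 80341126, minus strand) encodes a Sprouty protein, an inhibitor of RAS and ERK signalling below receptor tyrosine kinases. It had 922, 1010 and 626 reads, or 110.2, 103.9 and 87.8 TPM, with a mean of 100.6 ± 11.6 TPM (SD, n = 3). Replicate 3 was the lowest.

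SPRY4 (ENSG00000187678, chromosome 5, 142310427 to 142326455, minus strand) encodes another Sprouty protein. It had 2496, 2682 and 1669 reads, or 146, 135 and 115 TPM, with a mean of 132 ± 16.0 TPM (SD, n = 3). It held 57.0%, 56.6% and 56.7% of the TPM of both Sprouty members, a mean of 56.7 ± 0.250% (SD, n = 3). The coefficient of variation was 11.5% for SPRY2 and 12.1% for SPRY4. Their ratio was 1.327, 1.302 and 1.307, a mean of 1.31 ± 0.0134 (SD, n = 3). Whether other pairs of genes keep as steady a ratio was not tested. Their transcripts shared no run longer than 14 bases.

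DUSP6 (ENSG00000139318, chromosome 12, 89347235 to 89352501, minus strand) encodes a cytoplasmic phosphatase that removes the activating phosphates from ERK. It had 2649, 2886 and 1873 reads, or 264, 247 and 219 TPM, with a mean of 243 ± 22.8 TPM (SD, n = 3). It was at the 97.3rd percentile of protein-coding genes. Its ratio to SPRY4 was 1.80, 1.83 and 1.91. Of its exon bases, 28.6% lie opposite exons of the lncRNA gene ENSG00000274021 (chromosome 12, 89351015 to 89353271), which had 594, 591 and 405 reads.

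The promoters of the 3 feedback genes are shown because ETS factors, among them ETV4 and ETV5, act downstream of ERK and bind a core with the letters GGAA. The sequences are RefSeq promoters on GRCh38.p14. They run from 250 bases before the start of transcription to 50 after it, along the minus strand on which all 3 genes lie. Windows of 7 of the 10 members were searched. No window was searched for FGF4, FGF8 and FGFR1, which does not mean that RefSeq has none for them. For each searched member with several RefSeq promoters (5 for FGFR2, 3 for SPRY2 and 2 for FGFR4), only the window nearest to the annotated 5′ end was used. The single SPRY4 window belongs to a start inside the gene and does not reach its annotated 5′ end at 142326455. The windows of DUSP6 and SPRY2 do include the annotated 5′ ends of their genes. Capitals mark the letters CGGAA or their reverse complement TTCCG, which is a narrower search than one for GGAA.
DUSP6, chr12:89352452-89352751, minus strand: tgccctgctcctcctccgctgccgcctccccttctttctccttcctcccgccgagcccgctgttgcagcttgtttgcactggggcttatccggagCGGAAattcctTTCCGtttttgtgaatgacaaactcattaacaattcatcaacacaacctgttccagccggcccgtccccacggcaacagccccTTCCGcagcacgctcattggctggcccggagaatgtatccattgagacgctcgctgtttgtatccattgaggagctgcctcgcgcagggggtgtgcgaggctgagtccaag
SPRY2, chr13:80341077-80341376, minus strand: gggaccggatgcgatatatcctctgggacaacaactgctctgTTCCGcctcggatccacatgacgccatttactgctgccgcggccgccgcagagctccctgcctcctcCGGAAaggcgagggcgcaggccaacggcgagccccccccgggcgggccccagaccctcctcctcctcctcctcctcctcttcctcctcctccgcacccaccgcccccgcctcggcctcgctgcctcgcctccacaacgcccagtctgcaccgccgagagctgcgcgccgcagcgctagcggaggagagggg
SPRY4, chr5:142324198-142324497, minus strand: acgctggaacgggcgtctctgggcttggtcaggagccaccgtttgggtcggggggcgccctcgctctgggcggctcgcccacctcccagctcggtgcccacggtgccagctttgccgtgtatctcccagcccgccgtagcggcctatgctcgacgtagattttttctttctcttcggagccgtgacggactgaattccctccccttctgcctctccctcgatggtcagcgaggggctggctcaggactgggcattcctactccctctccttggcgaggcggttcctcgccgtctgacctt
DUSP6 held 3 matches, which began at positions -155, -144 and -61 from the start, and SPRY2 held 2, at -208 and -141. SPRY4 had no match to CGGAA or TTCCG in its window, although the shorter GGAA occurs in it. At least 1 match on either strand was present in 34.9% of 35116 RefSeq promoters. The single windows searched for FGF2, FGFR2, FGFR3 and FGFR4 had no match either. Thus 2 of the 7 windows searched held a match, which is no excess over that share. How many promoters hold several matches was not computed. The letters GGGCGG, a GC box, were found on either strand in 6 of the 7 member windows searched, all but that of DUSP6, and in 45.0% of all promoters. The letters CGG end the GC box and begin CGGAA, so matches of both can overlap. The letters TATAAA, which occurred in 11.5% of promoters, were in 0 of the 7. The promoter of DUSP6 had a GC content of 58.3%, near the median of 58.7% over all promoters. The other 6 windows searched lay between 65.0% and 86.3%.

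In order of mean TPM by all annotated exons, the members ran DUSP6, SPRY4, FGFR1, SPRY2, FGF2, FGFR4, FGFR3, FGFR2, FGF8 and FGF4. Neighbors were taken to differ beyond their spread where their ranges did not overlap and their means differed by more than the sum of their SDs, because an exact permutation test of 3 values against 3 cannot go below p = 0.10. DUSP6 differed in this way from SPRY4, with a ratio between 1.80 and 1.91. FGF2 differed from FGFR4, FGFR2 from FGF8 and FGF8 from FGF4, the latter with a ratio between 2.79 and 4.19. SPRY4, FGFR1, SPRY2 and FGF2 did not differ beyond their spread from one to the next, nor did FGFR4, FGFR3 and FGFR2. Within libraries, FGFR1 was above SPRY2 and FGFR4 above FGFR3 in 3 of 3 replicates, while the other neighbors in these runs changed places in 1 replicate.

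By the MANE Select length, FGFR1 came first, 1.21 to 1.65 times DUSP6, and the order went on with DUSP6, SPRY4, SPRY2, FGFR2, FGF2, FGFR4, FGFR3, FGF8 and FGF4. DUSP6 and FGFR1 exchanged places between the lengths, as DUSP6 was 2.34, 2.11 and 1.72 times FGFR1 by all exons and 0.824, 0.742 and 0.605 times by MANE Select. The pairs SPRY4 and SPRY2, FGFR2 and FGF2, and FGFR3 and FGF8 did not differ beyond their spread. This rule takes no account of genes being measured in the same library, and within libraries SPRY4 was above SPRY2 in 3 of 3 replicates, by a ratio between 1.24 and 1.26, and FGFR2 was above FGF2 in 3 of 3, by a ratio between 1.06 and 1.17. By this length DUSP6 had 160.0 ± 14.3 TPM, SPRY4 109 ± 12.8 TPM, SPRY2 87.5 ± 9.70 TPM and FGF2 53.3 ± 3.34 TPM (SD, n = 3). FGF8 had 13.0 ± 2.97 TPM and FGF4 3.12 ± 0.355 TPM (SD, n = 3). FGF4 was the lowest member by both lengths. Since TPM adds to the same total, the level of a gene also depends on the lengths of all other genes. FGF4 was lower by MANE Select although its own length was the same. FGFR4, SPRY2 and SPRY4 were lower too, although their length ratios of 1.56, 1.41 and 1.34 lay above the median of 1.32.

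**Figure D3:**
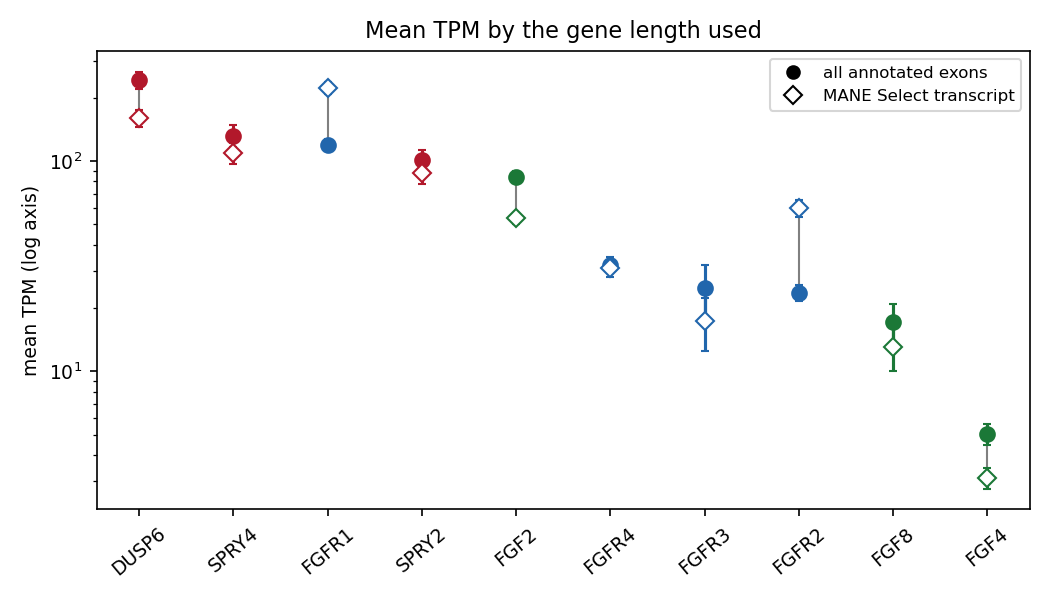
Mean TPM of each member (log axis) by the length of all annotated exons and by the MANE Select transcript, with the SD over 3 replicates. FGFR1 rises from 119 to 223 TPM and FGFR2 from 23.6 to 59.5 TPM, while the other 8 members are lower by MANE Select, some of them slightly.

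Replicate 3, the library with the fewest reads, was the highest or the lowest replicate for 9 of the 10 members. It was above both others for FGF2, FGF8 and all 4 receptors, 6 of 10, where 36.0% of 13006 protein-coding genes with at least 10 reads in every replicate were above. It was below both others for SPRY2, SPRY4 and DUSP6, 3 of 10, where 42.2% of those genes were below. Only FGF4 lay within the range of the others. Most of these protein-coding genes thus lay outside in replicate 3 as well, so the count of 9 is not particular to the members.

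The size of the differences gave the feedback genes a place near one end of all genes. The log2 ratio of replicate 3 to the mean of replicates 1 and 2 was -0.29 for SPRY2, -0.29 for SPRY4 and -0.22 for DUSP6, at percentiles 4.85, 4.50 and 8.85 of the 13006 genes. For FGFR3 it was 0.58, at percentile 96.9, and for FGF8 0.39, at percentile 92.3. FGFR1, FGFR2 and FGFR4 had 0.15, 0.21 and 0.19. Over all those genes the median was -0.01, with quartiles at -0.12 and 0.14.

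Exon GC content moved with this difference for some members. After each replicate was corrected for exon GC content, 8 members lay outside in replicate 3, with FGF2, FGFR1, FGFR2 and FGFR3 above and FGFR4, SPRY2, SPRY4 and DUSP6 below. The background was then 39.4% above and 34.9% below. FGFR4, with a GC content of 62.6%, changed its sign from 0.19 to -0.07, and FGF8, with 65.6%, fell from 0.39 to 0.13 and into the range of the others. The feedback genes kept their sign, at -0.24 for SPRY2, -0.27 for SPRY4 and -0.16 for DUSP6. Among the corrected ratios of all those genes, these were at percentiles 6.06, 5.01 and 12.1. Why replicate 3 differed for these genes was not tested.

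**Figure D4:**
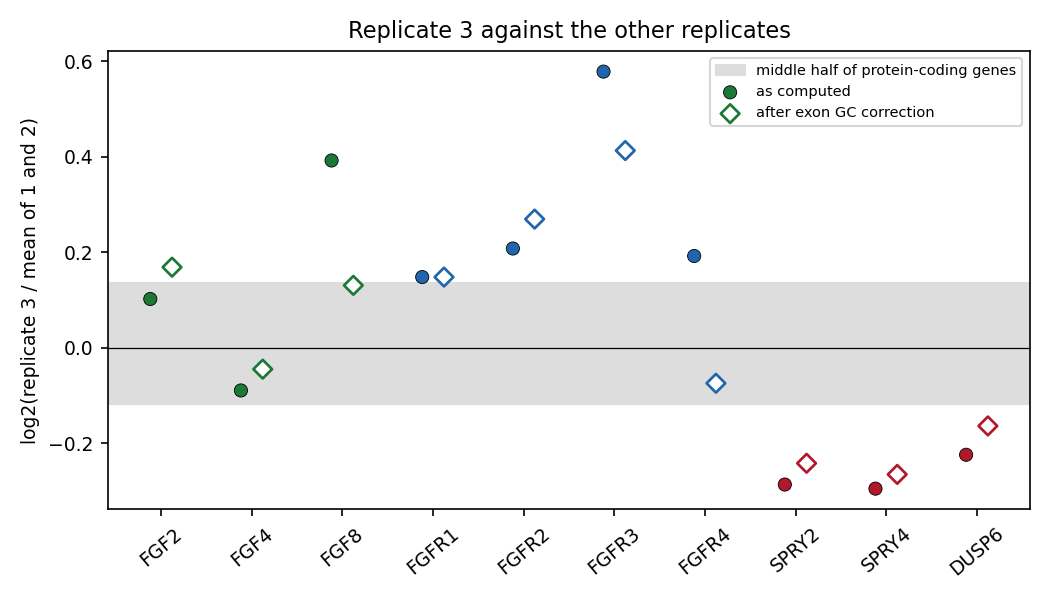
Log2 ratio of replicate 3 to the mean of replicates 1 and 2 for each member, as computed from TPM and after GC correction. The band shows the quartiles of 13006 protein-coding genes before GC correction. Both values of SPRY2, SPRY4 and DUSP6 lie below this lower quartile of -0.12, both of FGFR3 lie above this upper quartile of 0.14, and FGFR4 changes its sign.

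Summed by role, the feedback genes had 520.2, 486 and 421 TPM in replicates 1, 2 and 3, and the receptors 183, 196 and 220 TPM. The ligands had 102, 103 and 113 TPM. The ratio of feedback to receptor transcripts was 2.85, 2.47 and 1.91, a mean of 2.41 ± 0.472 (SD, n = 3), and 2.80, 2.40 and 2.01 after GC correction. By the MANE Select length it was 1.27, 1.12 and 0.877, so replicate 3 was the lowest by either length but the sums changed places in it. The ratio of ligand to receptor transcripts was 0.561, 0.526 and 0.515, and 0.218, 0.206 and 0.207 by MANE Select. FGF2 was 0.698, 0.732 and 0.693 times FGFR1, and 0.236, 0.248 and 0.235 times by MANE Select. Both ratios varied little between replicates and were lower by MANE Select, which raises the level of FGFR1 and lowers that of FGF2.

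The members were set against a list of 82 genes of the pathway, in which the other 72 were grouped by role. Of all 82, 64 were at or above 1 TPM in every replicate and 35 were in the high class. Of the 72 that are no members, 54 and 29 were. The median level was 58.2 TPM for the 10 members and 18.2 TPM for the other 72.

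Ligand genes were mostly low. Of 18, 6 were at or above 1 TPM in every replicate, the median was 0.626 TPM, and FGF2 and FGF19 were the ligand genes in the high class. After FGF19, the highest that are no members were FGF16, at 4.84 ± 0.638 TPM, and FGF17, at 3.71 ± 0.497 TPM (SD, n = 3). FGF3, FGF6 and FGF21 had no read, which at 3 counts allows up to 0.841, 0.958 and 1.00 TPM in the shallowest replicate. Of the 4 homologous factors, which are not secreted and do not act through the receptors in the usual way, FGF12 was highest with 18.9 ± 0.899 TPM, ahead of FGF13 with 7.18 ± 0.835 TPM (SD, n = 3) and FGF11 with 0.624 TPM. The value of FGF11 is limited by overlap, as 4169 of its 5080 exon bases are shared on the same strand. How reads there were assigned is not known.

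Among the receptors, FGFRL1, which lacks the kinase domain, had 21.8 ± 1.07 TPM (SD, n = 3), near FGFR2 and FGFR3. By MANE Select it had 17.2 TPM, near FGFR3 with 17.4 TPM and below FGFR2 with 59.5 TPM. The coreceptor gene KL had no read, which allows up to 0.267 TPM. All 19 genes of adaptors and the RAS to ERK cascade were at or above 1 TPM, and 13 were in the high class. SHC1 was highest with 208 ± 2.04 TPM, followed by NRAS with 176 ± 5.29 TPM and GRB2 with 116 ± 4.10 TPM (SD, n = 3). GRB2 was thus close to FGFR1 by all exons, but at 104 against 223 TPM by MANE Select. Of 14 genes for FGF binding proteins and heparan sulfate enzymes, 11 were at or above 1 TPM. NDST2, named after its value was seen, had 0.231 TPM, and 3857 of its 4654 exon bases are shared on the same strand. Its value is limited by overlap, as for FGF11. The secreted carrier gene FGFBP3 had 161 ± 7.19 TPM, the sulfotransferase genes NDST1 and HS6ST1 had 101 ± 2.22 and 74.4 ± 4.19 TPM (SD, n = 3), and FGFBP2 had no read, which allows up to 1.14 TPM.

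All 14 feedback genes of the list were at or above 1 TPM and 9 were in the high class. DUSP6 was the highest of them, SPRY4 was next with 132 TPM, and IL17RD, a membrane inhibitor of FGF signalling, had almost the same level, 132 ± 18.4 TPM (SD, n = 3). By MANE Select, IL17RD had 89.5 TPM, against 109 for SPRY4 and 87.5 for SPRY2. DUSP5, a nuclear ERK phosphatase, had 83.8 ± 8.73 TPM, and CBL, a ubiquitin ligase, 77.2 ± 5.42 TPM (SD, n = 3). Replicate 3 was below both other replicates for 13 of the 14, all but DUSP7, before GC correction and for 13 of the 14, all but SPRED2, after it. Among all protein-coding genes with at least 10 reads in every replicate, 42.2% were below before the correction and 34.9% after it. Of the 55 pathway genes that are no members and had as many reads, 34 were below before the correction and 28 after it. These exceptions were named after their values were seen. The 6 transcription factor genes that ERK induces were all at or above 1 TPM, and 3 were in the high class. ETV4 had 256 ± 17.4 TPM (SD, n = 3), close to DUSP6 by all exons, but 238 against 160.0 TPM by MANE Select. ETV5 and ETV1 had 71.1 ± 10.2 and 55.6 ± 3.88 TPM (SD, n = 3). The other 3 were in the medium class, FOS with 9.75 ± 1.28 TPM, EGR1 with 5.21 ± 1.89 TPM and FOSL1 with 3.95 ± 0.863 TPM (SD, n = 3). Replicate 3 was below both others for ETV1, ETV4, ETV5 and FOS and above both for EGR1 and FOSL1. FOS, EGR1 and FOSL1 were also named after their values were seen.

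**Figure D5:**
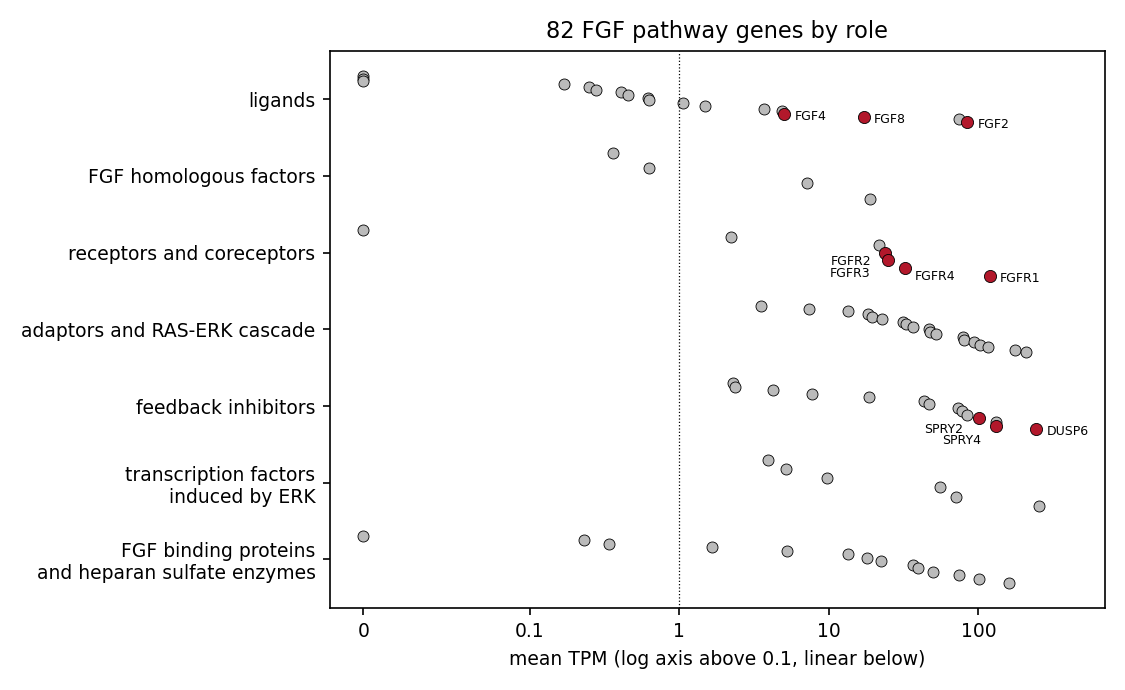
Mean TPM over 3 replicates (log axis above 0.1, linear below) of the 82 pathway genes, each a point, by role, with the 10 members in red and the dotted line at 1 TPM. All 14 feedback genes and all 19 cascade genes lie to the right of 1 TPM, whereas 12 of the 18 ligand genes were below it in at least 1 replicate.

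Overlapping genes limit some of these values, since it is not known whether the counting used the strand of reads. ENSG00000274021, opposite DUSP6, had 89.5 ± 10.4 TPM (SD, n = 3), or 704 reads per kilobase against 1920 for DUSP6. NUDT6, opposite FGF2, had 17.2 ± 1.86 TPM (SD, n = 3), or 136 reads per kilobase against 661. Opposite FGFR1 lie the lncRNA gene ENSG00000255201 (chromosome 8, 38421889 to 38426096), with 138 ± 5.88 TPM, and LETM2, with 2.88 ± 0.985 TPM (SD, n = 3), over 2.25% and 0.802% of the exon bases of FGFR1. The lncRNA gene had 1088 reads per kilobase against 931 for FGFR1, and 72.5% of its own exon bases lie over exons of FGFR1. The other 7 members share no exon base with another gene, and no member shares one on its own strand.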

How the data were processed

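Per the labels and the submitters' processing notes, RNA of 3 H9 replicates was isolated in parallel, depleted of ribosomal RNA, made into libraries with a NEBNext Ultra II kit and amplified before sequencing. The authors trimmed reads with Trim Galore 0.4.4 and aligned them to GRCh38 with TopHat2 2.1.1. They deposited whole-number counts of reads per gene, without normalization. How reads were assigned to genes (tool, annotation, strand) is not given in the sources used. The authors' own Cufflinks 2.2.1 levels were not used here.

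Identifiers were looked up in GENCODE release 44 (also GRCh38). Of 58051 genes, 56948 matched, and the 1103 others held 0.273% to 0.294% of the counts. TPM was computed from the counts by the length of the union of exons and, as an alternative, of the MANE Select transcript. Classes follow the study's methods, here over protein-coding genes. Totals per replicate set the precision, and limits from counts cover only counting error, as PCR can copy 1 molecule many times. With 1 group, edgeR's quasi-likelihood test could not be run. edgeR 4.0.16 and DESeq2 1.42.0 (R 4.3.3) gave scaling factors only. GC correction divided each replicate by its median ratio to the mean over genes in 20 bins of exon GC content. Exact matches were searched with Python 3.11.15 (numpy 2.4.6, pandas 2.3.3) and blastn 2.17.0. The steps were tested on simulated data.

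The members and lists were chosen with earlier results of these data known. Named genes were all members, genes overlapping their exons, and for each role of the pathway list the 3 highest that are no members and those without a read. Cell type markers are given by count and range, and the fibroblast markers by value. Alternatives were the gene length, scaling, filters, depth, averaging, thresholds and leaving out each replicate. Ratios between members, with their alternatives, and replicate 3 by the MANE Select length were added after seeing the data.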

Additional observations from a re-analysis of the deposited data

How the results depend on the processing

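The mean TPM of a member was counted as moved where it changed by more than its SD. This held for 6 members with the longest transcript as gene length, 9 with MANE Select, 10 with the exon bases shared with no other gene as length and 8 with CPM. It held for 0 under TMM or DESeq2 factors, without mitochondrial genes, with filterByExpr, thinned counts, the median, or leaving out any replicate. The length of unshared exon bases changed only the length and kept all reads. All 10 members were lower by it, also those that share no exon base, so it does not measure the effect of overlaps. The order of members changed in 4 pairs with the longest transcript, 5 with MANE Select and 6 with CPM, and in 0 to 1 pairs when a replicate was left out, the 1 being FGFR3 and FGFR2 without replicate 3. The FGFR1 share of receptor TPM (59.7%) was 70.0% with the longest transcript, 67.4% with MANE Select and 74.1% with CPM. The FGF2 share of the member ligands (79.2%) was 93.4% with CPM. The SPRY4 share of both Sprouty genes (56.7%) was 57.5%, 55.5% and 72.8% in the same 3 settings and 56.3% with counts thinned to 10%. The mean ratio of feedback to receptor transcripts (2.41) was 1.09 with MANE Select, 2.40 after GC correction and 2.66 without replicate 3. Members in the high class numbered 5 to 9, with 5 where filterByExpr or a floor of 1 TPM was used and 9 over all genes. All 10 members stayed at or above 1 TPM in every replicate in each setting that kept this threshold, and 9 reached 10 TPM in every replicate. Of the 82 pathway genes, 64 reached 1 TPM in every replicate, 75 reached 0.1 TPM and 48 reached 10 TPM. The share of all protein-coding genes was computed only for 1 TPM (65.1%) and for the main high class (28.8%). Counts at other thresholds or with other class limits therefore have no background here and cannot be read as a result about these genes. No paired analysis was possible because there is 1 group. Few reads limit FGF4 and FGF8, with 125 and 189 reads in all.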
